A study of Mus musculus with 53 samples.

Results

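H3K4me1 was profiled by CUT&RUN in embryonic stem cells kept in naive pluripotency and in naive extra-embryonic endoderm (nEnd), and the peak lists of 6 libraries were compared out of 53 samples in the series, 35 of which came with a peak list. CUT&RUN maps a chromatin mark by tethering micrococcal nuclease to an antibody bound there and sequencing the fragments that it frees. All 6 libraries came from SGGC clones, E14JU mouse embryonic stem cells of 129/Ola origin in which endogenous SOX2 is fused to GFP and endogenous GATA6 to mCherry, so both factors carried a tag in every group. 2 libraries were made from nEnd, here called nEnd 1 and nEnd 2, and both came from clone B9. 2 libraries came from 2iLIF, a serum-free medium with inhibitors of MEK and GSK3 and the cytokine LIF, and 2 from NACL, a serum-free medium with Activin A, the GSK3 inhibitor CHIR99021 and LIF. Each of these naive media was represented by clones B9 and B12, 1 library each, and NACL shares its added factors with the medium of nEnd but not its base. The labels list no nEnd library of clone B12 for this mark, although other nEnd marks have both clones. In their full lists, chromosome 14 held 4.09 and 3.95% of the peaks of nEnd 1 and nEnd 2, within the 3.91 to 4.53% of the B9 libraries of 8 matched pairs in the series and above the 1.82 to 3.07% of their B12 partners. As labelled, clone and medium are partly tied, and the 2 nEnd libraries show the spread within a single clone. Labels do not say that libraries of a group came from separate cultures, so the spread between them may be technical. Peaks of the 6 libraries were merged into regions wherever they overlapped by at least 1 bp, after the same number of peaks had been taken from each (18627, the size of the smallest list, ranked by maximum signal). nEnd-only regions held a peak of both nEnd libraries and of no naive library, naive-only regions held a peak of all 4 naive libraries and of no nEnd library, and shared regions held a peak of all 6. Of 40028 merged regions, 5773 were nEnd-only (14.4%), 3389 were naive-only (8.47%) and 2883 were shared (7.20%).

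Monomethylation of lysine 4 on histone H3 is placed by the MLL3 and MLL4 methyltransferases and marks enhancers and the flanks of promoters. It is found at enhancers before they are active as well as at active ones, which in addition carry acetylation of lysine 27 on the same histone, H3K27ac. nEnd is the cultured counterpart of primitive endoderm, the inner cell mass lineage that forms yolk sac endoderm, is specified by GATA6 and lays down a basement membrane. Naive embryonic stem cells correspond to the epiblast of the same embryo and are maintained by SOX2, OCT4, NANOG and a circle of naive factors that include KLF4, ESRRB and TFCP2L1.

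A few stretches of the reference genome show what lay under such regions. Each is the 200 bp around the strongest point of a transcription factor peak inside a class-specific region near a lineage gene, from GRCm38 (mm10), plus strand, outside any protein-coding gene. For the 4 nEnd-only regions the factor was GATA6 in nEnd clone B12. Capitals mark AGATAA, a string bound by GATA factors, read on either strand. For the naive-only region of Sox2 the factor was SOX2 in NACL clone B9, and capitals mark CATTGT, a string bound by SOX factors.
Gata4, chr14:63283553-63283752: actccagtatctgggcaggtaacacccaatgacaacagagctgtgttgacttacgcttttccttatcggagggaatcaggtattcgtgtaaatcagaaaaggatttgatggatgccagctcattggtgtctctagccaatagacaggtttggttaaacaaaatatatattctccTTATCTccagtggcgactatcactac
Pdgfra, chr5:75118371-75118570: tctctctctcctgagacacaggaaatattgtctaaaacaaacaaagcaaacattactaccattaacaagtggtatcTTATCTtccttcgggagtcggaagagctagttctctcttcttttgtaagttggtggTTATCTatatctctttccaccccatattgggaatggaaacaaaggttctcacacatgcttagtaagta
Sox17, chr1:4537547-4537746: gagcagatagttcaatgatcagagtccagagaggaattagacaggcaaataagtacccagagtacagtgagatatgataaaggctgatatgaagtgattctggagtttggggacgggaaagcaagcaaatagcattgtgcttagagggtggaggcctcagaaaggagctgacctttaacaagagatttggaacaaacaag
Klf4, chr4:55564200-55564399: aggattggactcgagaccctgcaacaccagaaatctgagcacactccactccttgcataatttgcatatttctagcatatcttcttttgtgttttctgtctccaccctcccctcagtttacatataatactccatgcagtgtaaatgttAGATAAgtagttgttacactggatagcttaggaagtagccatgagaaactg
Sox2, chr3:34653942-34654141: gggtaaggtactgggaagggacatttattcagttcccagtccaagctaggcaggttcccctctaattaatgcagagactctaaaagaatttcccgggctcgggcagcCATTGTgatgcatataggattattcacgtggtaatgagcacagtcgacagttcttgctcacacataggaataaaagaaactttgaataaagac
The Gata4 window lay 12.0 kb upstream of the gene's start and held 1 match, and the Pdgfra window lay 33.8 kb upstream and held 2. The Sox17 window, 40.3 kb upstream, carried a GATA6 peak stronger than 99.9% of that library's peaks and held no match of these letters. The Klf4 window, 31.8 kb upstream, held 1 match under a GATA6 peak of middling strength, stronger than 49.8% of the list. The Sox2 window lay 3.64 kb downstream of the start, beyond the gene's end, and held 1 CATTGT. Not every window that the rule selects is shown, and the windows shown do not stand for how often a string occurs, which the shares over all peaks give. Of 6295 GATA6 peaks of that library in nEnd-only regions, 58.6% held AGATAA in the same 200 bp (95% Clopper-Pearson interval 57.4 to 59.8), compared with 55.7% of all 32510 GATA6 peaks and 13.6% of 52960 windows placed every 50 kb along the genome. Of 3041 SOX2 peaks in naive-only regions, 25.8% held CATTGT (24.2 to 27.4), fewer than the 29.3% of all 29623 SOX2 peaks of that library, and 12.3% of the genome windows did.

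The 6 lists differed in size and shape before any comparison. They held 42816 and 18627 peaks in nEnd, 33252 (B9) and 52599 (B12) in 2iLIF, and 30698 (B9) and 24700 (B12) in NACL. Maximum and total signal were on each library's own scale and read depth is unknown, so signal served only to rank peaks within a list, and no level was compared between libraries. The weakest peak taken had a maximum signal of 16 in nEnd 1 and 5 in nEnd 2, and of 9, 16, 8 and 9 in 2iLIF B9, 2iLIF B12, NACL B9 and NACL B12. The next value left out was 15 in nEnd 1 and 8, 15, 7 and 8 in the 4 naive libraries. At equal numbers, 2iLIF B12 stood apart, with a median peak width of 5010 bp against 2650 to 2805 bp in the other naive libraries. nEnd 1 and nEnd 2 had medians of 4490 and 3203 bp, between these. Chromosomes were also represented unequally: chromosome 1 held 7.11 to 7.39% of the peaks taken in nEnd and 8.92 to 10.4% in naive libraries, and chromosome 14 held 3.95 to 4.29% in the 4 B9 libraries and 1.63 to 2.24% in the 2 B12 libraries. When equal numbers were taken within each chromosome instead, 18116 per library in all, 5646 regions were nEnd-only, 3269 naive-only and 2867 shared.

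Peak width, covered bases and the share of peaks at start sites did not pass a test between nEnd and naive libraries. Median peak width was 3847 ± 910 bp (SD, n = 2) in nEnd and 3306 ± 1138 bp (n = 4) in naive media, a difference of 540.5 bp (exact permutation test over libraries, two-sided, p = 0.667, Benjamini-Hochberg adjusted p = 0.667). The peaks covered 94.7 ± 20.7 Mb in nEnd and 77.6 ± 27.6 Mb in naive media (exact permutation p = 0.4, adjusted p = 0.6). A start site lay within 1 kb of the peak's strongest point for 8.84 ± 0.82% of nEnd peaks and 7.998 ± 0.919% of naive peaks (exact permutation p = 0.4, adjusted p = 0.6). With 2 libraries against 4 there are 15 ways to split them, and the smallest two-sided p this design allows is 0.133, so none of the 3 tests could pass 0.05. The width difference turned to -103 bp without nEnd 1. The difference in covered bases, 17.1 Mb, was 2.50 Mb without nEnd 1 and 31.7 Mb without nEnd 2. The difference in the start site share, 0.844 percentage points, was 0.264 and 1.42 without these libraries, and 6.77 when measured from the nearest edge of the peak. A numeric tag in the titles joins nEnd 2 with the NACL libraries, and nEnd 1 and the 2iLIF libraries lack it, so tag and naive medium cannot be told apart. Within these sets the start site share differed in opposite directions, by 2.22 percentage points for nEnd 1 against 2iLIF and by -0.529 for nEnd 2 against NACL. The width difference was 605.5 and 475.5 bp and the difference in covered bases 18.1 and 16.1 Mb. With the sets kept apart, the exact permutation p was 0.667 for width, 0.333 for start sites and 0.556 for covered bases (9 arrangements, smallest p 0.111, each adjusted p = 0.667).

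At equal numbers, where the peaks lay separated the groups. Of nEnd 1 peaks, 68.5% overlapped an nEnd 2 peak, and 74.3% of nEnd 2 peaks overlapped an nEnd 1 peak. Across the groups, 28.5 to 35.0% of the peaks of an nEnd library overlapped those of a naive library, over 8 pairs. In the reverse direction, 31.1 to 42.2% of the peaks of a naive library overlapped those of an nEnd library. Between naive libraries the share was 54.4 to 83.7% over 12 pairs. With all peaks, in lists of unequal length, the ranges overlapped. The shares were then 39.5 and 93.8% within nEnd, 37.3 to 95.1% between naive libraries and 27.8 to 57.2% for nEnd peaks at naive libraries. Of nEnd 1 peaks, 47.3% overlapped 2iLIF B12. At equal numbers, the most frequent of all combinations of libraries was the pair of nEnd libraries alone. Next came nEnd 1 by itself (3824 regions) and all 4 naive libraries alone. The 2 specific classes are not defined alike, since nEnd-only asks for 2 peaks and naive-only for 4. With 2 libraries on each side, all of clone B9, 6646 regions were nEnd-only and 5398 naive-only. Against 2iLIF alone the counts were 6948 and 6999, and against NACL alone 6734 and 5952. With all peaks in place of equal numbers, 75367 merged regions held 5473 nEnd-only (7.26%), 4864 naive-only (6.45%) and 4617 shared ones (6.13%). The nEnd-only count rests on requiring both nEnd libraries: it was 10055 without nEnd 1 and 9845 without nEnd 2.

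**Figure D1:**
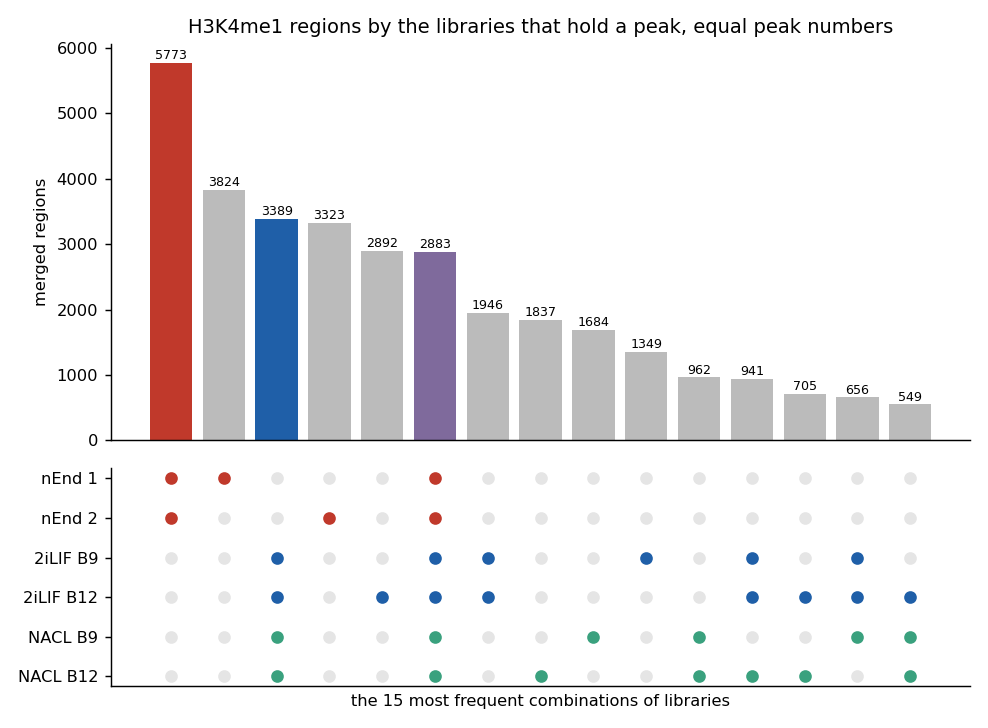
Number of merged H3K4me1 regions (bars, vertical axis) for the 15 most frequent combinations of libraries at equal peak numbers; filled dots below each bar show which of the 6 libraries held a peak. The nEnd-only bar (red, 5773) is the tallest, and the naive-only bar (blue, 3389) and the shared bar (violet, 2883) stand among single-library combinations in grey.

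A library left out of the definition showed how far the classes carried over. Among 10055 regions with a peak of nEnd 2 and of no naive library, nEnd 1 held a peak in 67.0% (66.0 to 67.9). Among 9845 regions with a peak of nEnd 1 and of no naive library, nEnd 2 held one in 61.2% (60.2 to 62.1). A naive library left out held a peak in 2.42 to 7.53% of the nEnd-only regions of the other 5, and in 78.4 to 91.5% of their naive-only regions. When left out, nEnd 1 held a peak in 14.9% and nEnd 2 in 9.02% of the naive-only regions of the other 5. The absence of a peak at equal numbers did not always mean absence from the full list. Of the 5773 nEnd-only regions, 64.8% (63.6 to 66.1) overlapped no peak in the full list of any naive library. A weaker peak of 2iLIF B12, the longest list, lay in 27.7% of them, one of NACL B9 in 12.8%, one of 2iLIF B9 in 6.51% and one of NACL B12 in 4.71%. Of the 3389 naive-only regions, 72.3% (70.8 to 73.8) overlapped no peak of either nEnd list and 27.7% a weaker peak of nEnd 1. The full list of nEnd 2 is the one taken, so it could add none. In cells measured in bulk, fewer cells with the mark and less mark in each cell cannot be told apart.

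Shared regions were the widest, with a median of 12770 bp (12439 to 13067), and naive-only regions (6781 bp, 6612 to 6911) were wider than nEnd-only ones (4755 bp, 4693 to 4829). Width is not independent of the class, because a region merged from more peaks grows: nEnd-only regions held 2.08 peaks on average, naive-only regions 4.73 and shared regions 9.14. The distance to the nearest annotated start site, taken from the strongest point of the region, had a median of 7.72 kb for nEnd-only, 9.76 kb for naive-only and 6.49 kb for shared regions, and of 7.99 kb over all merged regions. A start site lay within 1 kb of 8.33% of nEnd-only regions (7.63 to 9.07), 6.55% of naive-only regions (5.74 to 7.44) and 7.91% of shared regions (6.95 to 8.95). With all peaks the first 2 shares were 7.38% (6.70 to 8.11) and 6.50% (5.82 to 7.23), with overlapping intervals, so the difference between the specific classes fell from 1.78 to 0.885 percentage points. More than 50 kb from any start site lay 6.96%, 8.53% and 3.19% of them. Over all merged regions these shares were 8.28% within 1 kb and 8.28% beyond 50 kb, and 49.7% of nEnd-only, 47.0% of naive-only and 58.0% of shared regions had their strongest point in an intron of a protein-coding gene, away from start sites. Another 38.8%, 43.8% and 31.2% were intergenic, and over all merged regions 47.4% were intronic and 40.9% intergenic. These intervals cover counting error over regions and not the spread between libraries.

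**Figure D2:**
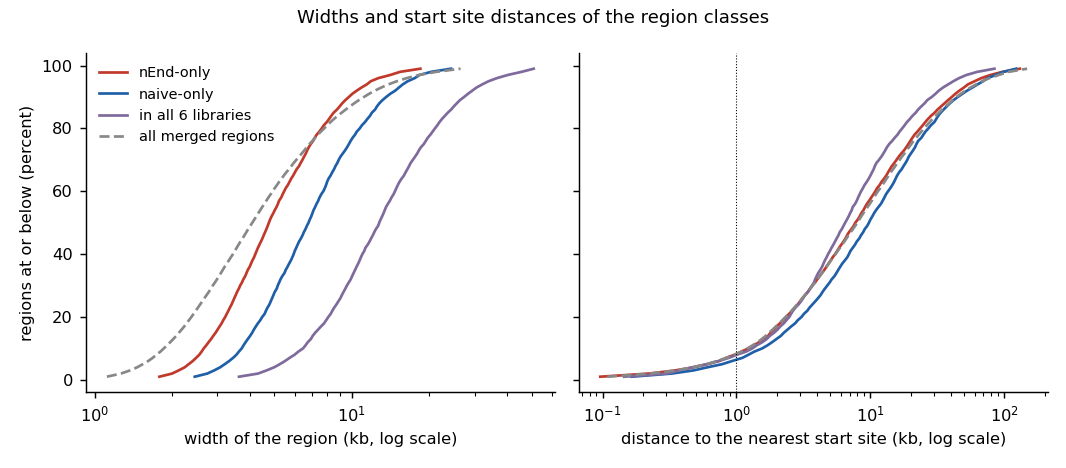
Cumulative percent of regions (vertical axis) by width (left, kb, log scale) and by distance to the nearest start site (right, kb, log scale; dotted line at 1 kb) for nEnd-only (red), naive-only (blue), shared (violet) and all merged regions (dashed grey). Widths are ordered nEnd-only, naive-only, shared, with medians of 4755, 6781 and 12770 bp, while the distance curves run close together, with medians of 6.49 kb (shared), 7.72 kb (nEnd-only) and 9.76 kb (naive-only), and cross in places.

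Sequence under the strongest point separated the classes although the rule had not used it. AGATAA, a string recognised by GATA factors, was sought on either strand in the 500 bp window around that point. It occurred in 45.1% of nEnd-only regions (43.8 to 46.4), 25.1% of naive-only regions (23.7 to 26.6) and 30.7% of shared regions (28.98 to 32.4). All merged regions had it in 33.0% and genome windows of that length, placed every 50 kb, in 30.1%. Where both nEnd GATA6 libraries had a peak in the region, 49.1% of nEnd-only regions held AGATAA (47.3 to 50.9), and where neither had one, 38.9% (36.6 to 41.3). TGTTTAC, a string bound by FOXA factors, was found in 10.7% of nEnd-only (9.94 to 11.5), 7.14% of naive-only (6.30 to 8.06) and 7.21% of genome windows. TCAAGGTCA, the extended ESRRB half-site, ran the other way, with 1.25% of nEnd-only (0.977 to 1.57), 3.22% of naive-only (2.65 to 3.87), 3.68% of shared, 2.95% of all merged regions and 1.08% of genome windows. CCACACCC, a KLF string, was present in 5.42% of nEnd-only (4.85 to 6.04), 7.41% of naive-only (6.55 to 8.34) and 8.64% of shared windows, in 7.16% of all merged regions and in 2.95% of genome windows. For both strings the naive-only share was near that of all merged regions. ATGCAAAT, the octamer bound by OCT4, was in 3.07% of nEnd-only (2.64 to 3.54) and 4.81% of naive-only windows (4.11 to 5.58), beside 4.19% of all merged regions and 4.54% of genome windows, so the naive-only share lay at the genome's and the nEnd-only share below it. CATTGT, a SOX string, was more frequent in nEnd-only (32.9%, 31.6 to 34.1) than in naive-only windows (26.8%, 25.3 to 28.3), with 28.6% of genome windows, and TGACTCA, the AP-1 string, was at 10.2% and 9.56%, with 7.44% of genome windows. None of these strings contains another. GC content was 44.4% in nEnd-only, 45.2% in naive-only and 45.6% in shared windows, and the share of repeat-masked bases 17.7%, 18.9% and 18.5%.

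Other marks and factors, mapped in libraries that had no part in the rule, followed the classes. GATA6 peaks of nEnd lay in 56.7% (B9) and 66.8% (B12) of nEnd-only regions, in 6.79% and 7.88% of naive-only regions, and in 59.97% and 69.9% of shared regions. Averaged over both libraries, the share in nEnd-only exceeded that in naive-only regions by 54.4 percentage points (SD 6.37, n = 2). Wider regions can hold more peaks, and naive-only regions were the wider of the pair. In a fixed window of 500 bp around the H3K4me1 maximum, the shares were 32.5% and 40.6% in nEnd-only, 1.18% and 1.48% in naive-only, and 15.6% and 21.4% in shared regions. H3K27ac of nEnd covered some part of 59.6% (B9) and 65.4% (B12) of nEnd-only, 14.7% and 15.9% of naive-only, and 81.3% and 86.0% of shared regions. The difference between the specific classes was 47.2 percentage points (SD 3.20, n = 2). With an H3K4me1 library left out of the rule, it was 30.6 without nEnd 1 and 38.2 without nEnd 2. Of these readouts in combination, 36.6% of nEnd-only regions (35.4 to 37.9) had GATA6 and H3K27ac peaks in both libraries of each, 8.78% had GATA6 in both with no H3K27ac peak, 10.2% H3K27ac in both with no GATA6 peak, and 14.4% (13.5 to 15.4) had neither in any nEnd library. Intergenic nEnd-only regions had GATA6 in both libraries in 59.5% of cases and intronic ones in 50.5%, while H3K27ac in both ran in the opposite order, at 46.5% and 57.0%.

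SOX2 and H3K27ac of the naive cells gave the mirror image. At 8203 peaks per SOX2 library, SOX2 lay in 26.3 and 26.5% of naive-only regions in 2iLIF, in 25.2 and 28.1% in NACL, and in 2.48 to 3.20% of nEnd-only regions over the 4 libraries. Shared regions had SOX2 in 31.5 to 32.8%. Naive H3K27ac lists were an order of magnitude longer than those of nEnd, so 20072 peaks were taken from each of the 6. Of naive-only regions, 55.2 to 59.7% then overlapped an H3K27ac peak of a naive library, compared with 12.3 to 15.4% of nEnd-only and 75.5 to 78.6% of shared regions. In their full lists the naive H3K27ac libraries overlapped 63.0 to 78.8% of nEnd-only regions, and 97.0 to 97.9% of naive-only regions. No more than 1.07% of nEnd GATA6 peaks lay in naive-only regions, whereas 19.3 and 19.4% lay in nEnd-only and 14.4 and 15.5% in shared regions.

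The classes were also read in sorted cells from KOSR cultures, all of clone B12. From these cultures SOX2+ cells and cells positive for both SOX2 and GATA6 (DP) were profiled. At 18627 peaks each, H3K4me1 of the 2 SOX2+ libraries lay in 71.5 and 71.7% of naive-only, 84.0 and 86.0% of shared, and 5.09 and 4.71% of nEnd-only regions. The DP library, of which there is 1 for this mark, had 55.0% (53.3 to 56.7), 85.3% (83.9 to 86.5) and 14.2% (13.3 to 15.1). With its full list of 130749 peaks, the DP library reached 67.9% of nEnd-only regions, and the SOX2+ lists of 58085 and 78354 peaks reached 24.9 and 33.3%. GATA6 of DP cells lay in 2.997 to 14.8% of nEnd-only regions over 3 libraries, in 1.30 to 6.31% of naive-only and in 7.804 to 29.8% of shared regions. In each of the 3 DP libraries the share was highest in shared regions, which are also the widest. In a 500 bp window the shares were 0.883 to 5.39% in nEnd-only and 1.46 to 4.79% in shared regions.

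**Figure D3:**
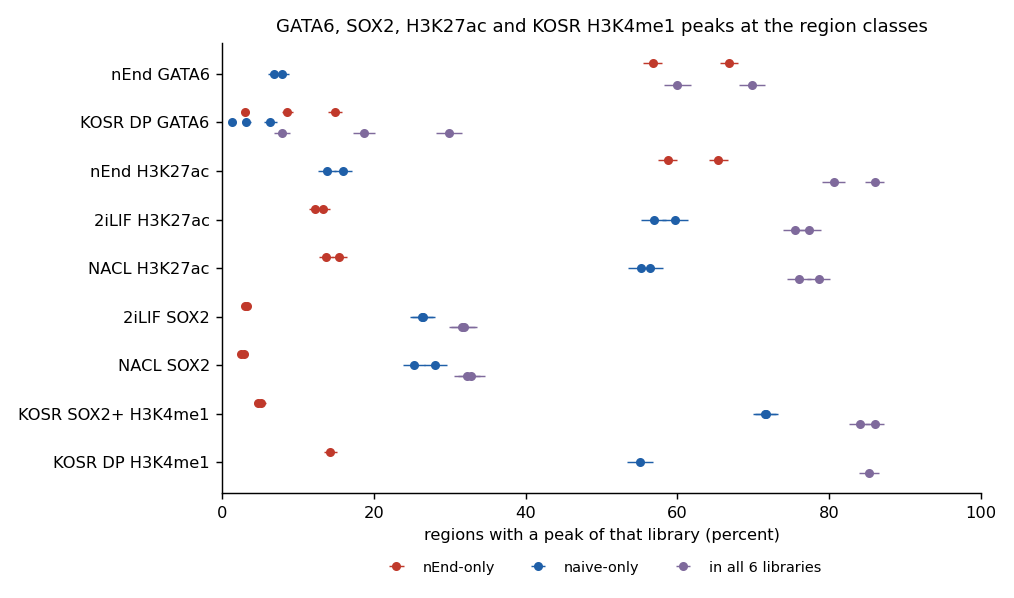
Percent of regions (horizontal axis, 0 to 100) that overlapped a peak of libraries not used to define them, for nEnd-only (red), naive-only (blue) and shared regions (violet). Each point is 1 library with its 95% Clopper-Pearson interval; GATA6 lists are complete, and H3K27ac, SOX2 and H3K4me1 of KOSR were taken at equal numbers. nEnd GATA6 and H3K27ac sit high in nEnd-only and low in naive-only regions, and naive SOX2, naive H3K27ac and SOX2+ H3K4me1 the reverse, with shared regions at the top in most rows.

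The strongest regions of both specific classes were named by their nearest gene. They were ranked by the mean percentile of their maximum signal in the libraries of the class, each within its own list. The 10 strongest nEnd-only regions lay nearest to Myo5b, Mmp15, Cfap97, Dab2, C9, Trib1, Kcnn1, Dennd1b, Fth1 and Zfp622, in that order, and their mean percentiles ran from 99.6 to 99.9. Dab2 encodes an endocytic adaptor needed for primitive endoderm to form a surface epithelium, and its region of 15348 bp lay 53.9 kb from its start, at chr15:6235509-6250856. Myo5b encodes a motor of apical vesicle recycling, and its intronic region measured 20349 bp. Among these 10, both nEnd H3K27ac libraries had a peak in 10 and both GATA6 libraries in 8. Over all nEnd-only regions these shares were 53.4% and 53.8%. The regions near Kcnn1 and Fth1 had no GATA6 peak. The 10 strongest measured 6428 to 27479 bp, compared with a class median of 4755 bp, and wider regions can hold more peaks. The 10 strongest naive-only regions lay nearest to Gpa33, Atp1b1, Inhbb, Kcnt2, Klhdc8a, Rnf152, Tex50, Zfp281, Rbmxl2 and Fgf4. Fgf4 encodes the ligand by which epiblast cells signal to primitive endoderm, and its region of 11847 bp, at chr7:144849581-144861427, lay 8.49 kb from its start and stood above the 99th percentile in all 4 naive libraries (99.2 to 99.3). A peak of at least 1 naive SOX2 library, from the full lists, lay in 10 of these 10, compared with 63.6% of all naive-only regions. No nEnd GATA6 peak lay in 9, which was near the class share of 90.2%. These 10 were also wide, at 8033 to 28644 bp, compared with a class median of 6781 bp. 8 of the 10 were on chromosome 1, compared with 1 of the 10 nEnd-only regions. Over the whole classes, chromosome 1 held 12.3% of naive-only (11.2 to 13.4), 9.47% of shared and 6.39% of nEnd-only regions (5.77 to 7.05), and chromosome 14 held 1.39%, 2.57% and 4.37%. With equal numbers taken within each chromosome, chromosome 1 held 8.38% of naive-only and 7.17% of nEnd-only regions. Chromosome 14 then held 1.68% of naive-only, 1.85% of shared and 2.59% of nEnd-only regions.

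For genes, the measure was the number of bases under H3K4me1 peaks within 50 kb of each protein-coding gene's start, at equal peak numbers. A gene was called to have more H3K4me1 in nEnd where both nEnd libraries exceeded all 4 naive libraries by at least 1 kb, and less where both lay below them by that much. Of 16561 genes with a peak of any library in the window, 4067 had more (24.6%) and 1820 had less (11%), and neighbouring genes share bases. The count of genes with more was 7609 without nEnd 2, and that of genes with less was 3135 without nEnd 1. With all peaks 2418 had more and 1629 had less, and with every library scaled to the same covered total 3770 had more and 2426 had less. With clone B9 alone, 5796 of 15904 tested genes had more and 2189 had less. A value of none, or of no peak, refers to the peaks taken, and the longer lists can hold weaker ones. The median difference over all tested genes was 1.68 kb towards nEnd. It and the shares of 24.6% with more and 11% with less are the background for each gene list that follows. The labelled cell types were checked against markers: 10 of 10 endoderm markers (Gata6, Gata4, Sox17, Sox7, Pdgfra, Foxa2, Dab2, Lama1, Lamb1 and Col4a1) had more H3K4me1 in nEnd, though the wider endoderm lists below also held genes with less, with 528 and 424 kb summed over them in nEnd 1 and nEnd 2 and 33.1 to 91.2 kb in the naive libraries. Of 8 naive markers, Sox2 and Tfcp2l1 had less in nEnd, Klf4 had more, and 5 were not called (with all peaks, 4 had less and none had more). Their sum was 168 and 123 kb in nEnd and 142 to 252 kb in naive libraries, so the groups overlapped.

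Most transcription factors of primitive endoderm had more H3K4me1 in nEnd. Of 12 listed, 9 had more H3K4me1 in nEnd and 1 had less, with a median difference of 23.2 kb (7 and 1 with all peaks or after scaling). Gata6, the factor that initiates the lineage, had 47.0 and 33.6 kb in nEnd, 4.16 and 8.98 kb in 2iLIF, and 2.996 and 10.1 kb in NACL (B9 before B12 here and below). Gata4, its partner in the same lineage, had 46.1 and 46.5 kb in nEnd, none in 2iLIF, and 7.71 kb and none in NACL. Every nEnd value lay far above every naive value for both genes. Gata4 is on chromosome 14, and at equal numbers within each chromosome it had 38.4 and 39.0 kb in nEnd and at most 6.02 kb in a naive library. Of its 5 regions, 3 were nEnd-only and the other 2 also held a peak of NACL B9. Gata6 had no nEnd-only region within 50 kb: each of the nEnd regions found in both libraries also held a peak of at least 1 naive library. Farther out, 5 nEnd-only regions had Gata6 as their nearest gene. Sox17, an endoderm SOX factor, had 35.2 and 30.0 kb in nEnd against 1.67 to 5.51 kb in the naive libraries, and 2 nEnd-only regions upstream. Foxa2, a pioneer factor of endoderm, had 33.3 and 37.6 kb against at most 3.97 kb (22.4 kb in 2iLIF B12 with all peaks). Gsc, a homeobox gene of the anterior endoderm and organizer, went the other way, with none in nEnd and 11.1 to 30.8 kb in the naive libraries. Foxa1 and Hhex were not called. 9 of these 12 genes were the nearest gene to at least 1 nEnd-only region, compared with 16.7% of all protein-coding genes, and 3 were nearest to a naive-only region, compared with 10.7%.

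Matrix genes were called in both directions, and transport genes mainly towards nEnd. Of 12 basement membrane genes, 6 had more in nEnd, 2 had less and 4 were not called (5 and 2 with all peaks, 4 and 2 after scaling). The counts were 10 and 2 without nEnd 2, and 8 and 2 without 2iLIF B12 or with clone B9 alone. Col4a1 and Col4a2, which encode type IV collagen chains and are transcribed divergently from 1 promoter, share their window, with 91.2 and 88.8 kb of 100 kb covered in nEnd, none in 2iLIF, and 3.98 and 1.83 kb in NACL. This was the largest gap of all genes. Lama1, a laminin chain, had 78.9 and 51.8 kb in nEnd and 4.63 to 29.5 kb in the naive libraries, and Hspg2, which encodes perlecan, had 48.9 and 50.5 kb against 15.2 to 28.8 kb, a call lost once libraries were scaled to the same covered total. Fn1 (fibronectin) had none and 2.23 kb in nEnd and 12.9 to 37.7 kb in the naive libraries, and Nid1 (nidogen) had none and 2.15 kb against 6.43 to 36.2 kb. Of 10 tested genes of endocytosis and transport, 7 had more and none had less (6 and 1 with equal numbers within each chromosome, 7 and 1 without nEnd 1). Cubn and Lrp2 encode receptors of visceral endoderm that take up proteins from outside the embryo. They had 50.6 and 47.0 kb and 62.1 and 41.6 kb in nEnd, and at most 4.57 and 4.66 kb in a naive library. With all peaks, 2iLIF B12 had 13.6 kb at Cubn and 11.7 kb at Lrp2. Ttr, which encodes transthyretin, had 59.4 and 35.1 kb against 7.67 to 10.1 kb (24.8 kb in 2iLIF B12 with all peaks). Dab2 had 19.9 and 16.1 kb in nEnd and no peak among those taken in any naive library (up to 2.14 kb with all peaks), and 7 nEnd-only regions had it as their nearest gene.

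Signalling genes were called in both directions. Of 13 tested, 4 had more and 3, namely Kit, Fgfr1 and Fgfr2, had less (5 and 2 with all peaks, 4 and 4 after scaling, 6 and 4 without nEnd 1), beside 24.6% and 11% of all tested genes. Pdgfra, the PDGF receptor of primitive endoderm, had 55.5 and 32.2 kb in nEnd, none in 2iLIF, and 1.52 kb and none in NACL. With all peaks it had 64.1 and 32.2 kb in nEnd and up to 7.17 kb, in 2iLIF B12, among the naive libraries. 3 of its 5 regions were nEnd-only, another was found in nEnd 1 alone and the last also in NACL B9. Dkk1, a secreted Wnt inhibitor, had 38.8 and 34.8 kb in nEnd and 3.34 to 9.36 kb in the naive libraries. Ihh, a hedgehog ligand, had 22.5 and 18.5 kb against 1.44 to 3.31 kb, and Bmp2, a ligand made by visceral endoderm, 19.2 and 22.9 kb against at most 7.95 kb. Fgfr1, an FGF receptor of both lineages, had no peak in nEnd and 18.7 to 37.2 kb in the naive libraries. Fgfr2 was also called, but its annotated span runs far beyond the receptor gene, so its window does not measure the promoter, its values are not given, and the count with less rests on Kit and Fgfr1 alone. Kit, which lies beside Pdgfra, had 6.71 and 9.34 kb against 14.1 to 28.2 kb and lost its call with all peaks and over the gene body.

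**Figure D4:**
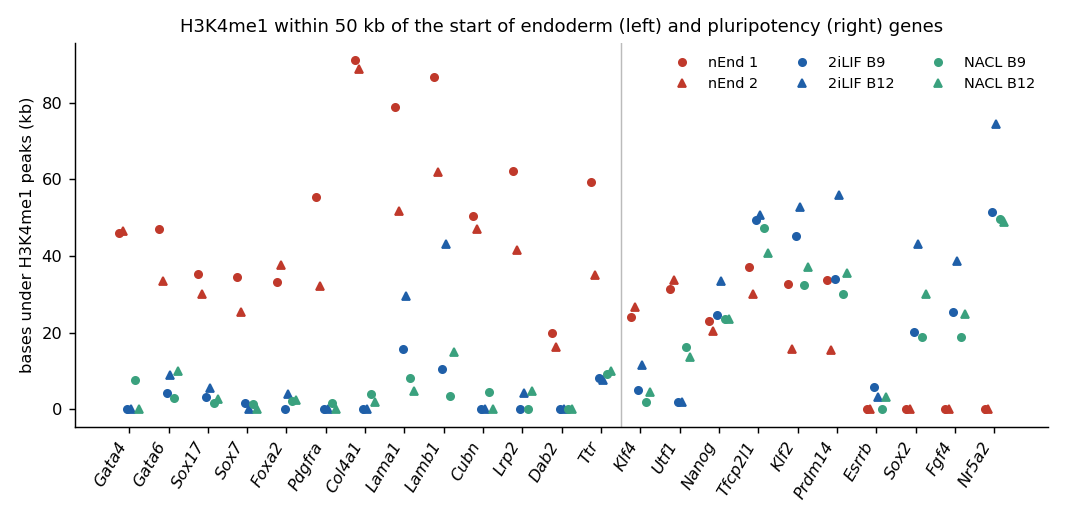
Bases under H3K4me1 peaks (kb, vertical axis) within 50 kb of the start of 13 endoderm genes (left of the line) and 10 pluripotency genes (right), at equal peak numbers; each symbol is 1 library, red for nEnd, blue for 2iLIF and green for NACL, circles for nEnd 1 and clone B9 and triangles for nEnd 2 and clone B12. The endoderm genes shown were all called to have more H3K4me1 in nEnd, and red symbols stand above all others for them. Genes of the same lists with less, among them Gsc, Fn1, Nid1 and Fgfr1, are not shown. At the pluripotency genes red symbols range from above the naive values (Klf4) to 0 (Sox2, Fgf4, Nr5a2).

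Naive pluripotency genes did not move as a group. Of 25, 3 had more in nEnd, 6 had less and 16 were not called, with a median difference of 2.97 kb towards nEnd beside 1.68 kb for all genes. The list held 1 gene with more and 7 with less with all peaks, 2 and 10 after scaling, and 8 and 6 with clone B9 alone. It held 5 and 9 without nEnd 1, 6 and 6 without nEnd 2, and 7 and 6 without 2iLIF B12. Sox2 had none in either nEnd library (2.64 kb in nEnd 1 with all peaks), 20.1 and 43.1 kb in 2iLIF and 18.8 and 30.0 kb in NACL, and its 5 regions were naive-only (2) or held naive libraries alone. Fgf4 had none in nEnd and 18.9 to 38.6 kb in the naive libraries. Nr5a2, an orphan nuclear receptor that regulates naive genes, had none against 49.0 to 74.4 kb, the largest gap of all genes with less, and 6 naive-only regions were nearest to it. Gbx2, a naive factor downstream of LIF, had none against 3.78 to 16.4 kb. Tfcp2l1 had 37.1 and 30.1 kb in nEnd and 40.7 to 50.7 kb in the naive libraries, though its call was lost over the gene body, and much of its window lay in a region of 47702 bp found in all 6 libraries, with GATA6 and H3K27ac peaks in both nEnd libraries. Nanog had 23.05 and 20.4 kb in nEnd and 23.5 to 33.5 kb in the naive libraries, a gap under 1 kb. It was called to have less in nEnd over the gene body, after scaling, with any gap allowed and without nEnd 1. Its window held 2 naive-only regions beside 1 nEnd-only and 2 shared ones. Esrrb had no peak in nEnd, 5.86 and 3.17 kb in 2iLIF, and none and 3.25 kb in NACL, so the groups met at 0. Its annotated body of 160.5 kb runs beyond the window. Esrrb had less in nEnd with all peaks, over the gene body and without NACL B9. Klf4 had more in nEnd, with 24.1 and 26.6 kb there, 5.04 and 11.5 kb in 2iLIF, and 1.85 and 4.43 kb in NACL. The paper describes KLF as expressed in both lineages. With all peaks, 2iLIF B12 had 27.5 kb at Klf4 and the gene was no longer called. Utf1 had 31.3 and 33.7 kb in nEnd against 1.75 to 16.1 kb, and Sall4 had 37.1 and 34.3 kb against 3.53 to 27.3 kb, which was lost with all peaks and after scaling. Of the 25, 10 genes were nearest to an nEnd-only region, 8 to a naive-only region and 16 to a shared one, compared with 16.7%, 10.7% and 9.47% of all protein-coding genes.

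**Figure D5:**
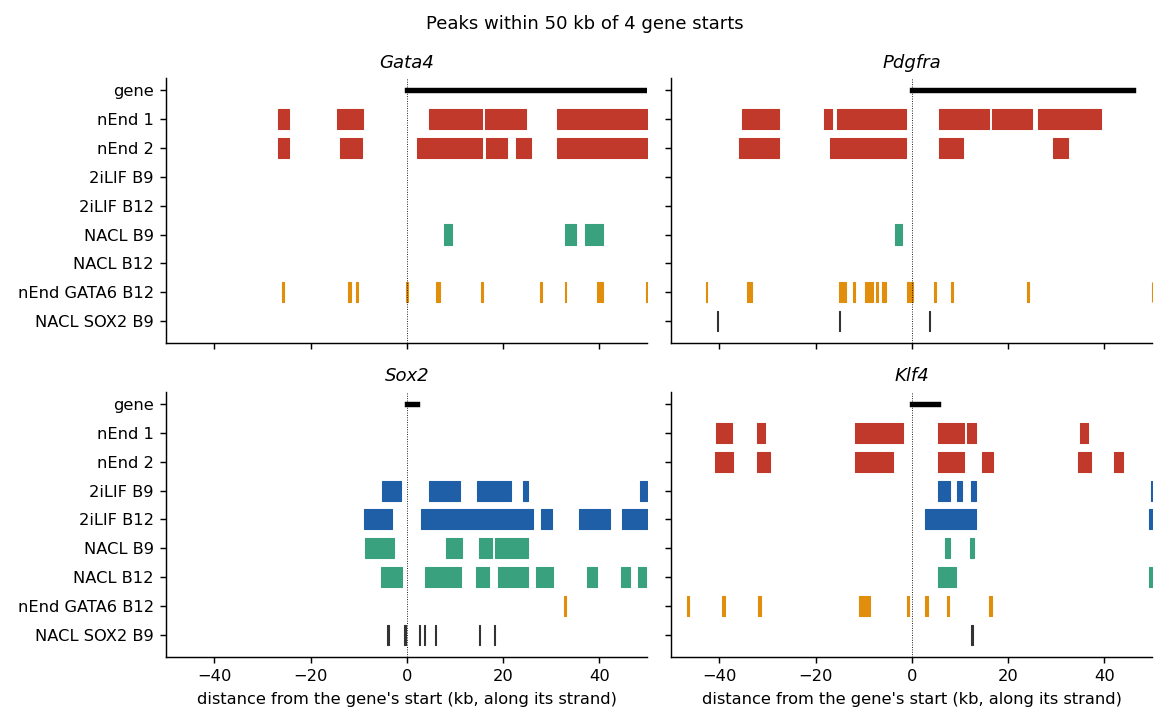
H3K4me1 peaks (blocks) of the 6 libraries at equal peak numbers, and peaks of nEnd GATA6 (B12) and NACL SOX2 (B9), within 50 kb of the starts of Gata4, Pdgfra, Sox2 and Klf4; the horizontal axis is the distance from the gene's start in kb along its strand and the black bar is the gene. Blocks of nEnd fill the windows of Gata4 and Pdgfra, where naive libraries hold little, Sox2 has blocks in naive libraries alone, and at Klf4 the nEnd libraries add blocks on both sides of a stretch marked in all 6.

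Markers of other cell types gave no common direction. Of 9 tested trophoblast genes, Krt8 and Krt18, keratins also expressed in endoderm, had more in nEnd, and Tfap2c (21.5 to 59.0 kb in the naive libraries) and Ascl2 had less. Of 8 formative epiblast genes, Dnmt3b, Dnmt3a and Otx2 had more and none had less, and the calls of Dnmt3a and Otx2 were lost with all peaks, as was that of Krt8. The formative count was 5 without nEnd 2, and the trophoblast counts were 4 and 3 with clone B9 alone. Of 7 mesoderm and neural genes, none had more and Sox1 and Pax6 had less, but without nEnd 2 the counts were 3 and 2. Among 9 housekeeping genes, 3 had more in nEnd, among them Rplp0 and Actb by gaps of 5.93 and 3.20 kb, and none had less. All 3 calls were lost with all peaks, where Pgk1 was called instead. With clone B9 alone, 7 housekeeping genes had more and none had less, and with 1 library left out 3 to 4 had more.

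Over all protein-coding genes, the 10 largest gaps towards nEnd included those at Col4a1, Col4a2, Podxl, C9, Bend5, Ankrd33b, Nrg2, Mybph and Cubn. Podxl encodes podocalyxin, an apical sialomucin, and had 67.2 and 64.2 kb in nEnd and at most 2.69 kb in a naive library. With all peaks, 2iLIF B12 had 11.4 kb at Podxl. C9, a complement component, had 72.7 and 49.3 kb and no peak among those taken in a naive library. It lies beside Dab2, and its window takes in the end of that gene. Bend5 had 58.3 and 50.8 kb against at most 3.46 kb and was nearest to 8 nEnd-only regions. The 10 largest gaps in the other direction were at Nr5a2, Mgat4e, Kdm5b, Gli2, Ttc39b, Cobl, Ddc, Zbtb34, Zbtb43 and Zfp281. At 7 of these 10 no nEnd peak among those taken lay in the window, though with all peaks nEnd 1 had 2.07 to 5.54 kb at each of the 7 but Gli2, and 5 of the 10 lay on chromosome 1. Gli2, a transcriptional effector of hedgehog signalling, had none in nEnd in either list and 38.8 to 69.7 kb in the naive libraries, and 15 naive-only regions were nearest to it. Zfp281, a zinc finger factor of pluripotent cells, had 12.8 and 11.6 kb in nEnd and 43.8 to 74.8 kb in the naive libraries. Mgat4e with Kdm5b, and Zbtb34 with Zbtb43, are neighbours that share part of their windows. All 20 kept their call with all peaks and with equal numbers within each chromosome. Some genes had both kinds of region: 581 genes were nearest to at least 1 nEnd-only and 1 naive-only region, and 11 to 3 or more of each, among them Kit (5 and 3) and Tbl1xr1, a transcriptional co-regulator (4 and 4).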

How the data were processed

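Peak lists of CUT&RUN libraries were analysed as deposited. Per the submitters' processing notes, reads were processed with cutadapt 1.18, Bowtie2 2.3.4.1, SAMtools 1.9, Picard 2.9.1, bedtools 2.27.1, deepTools 3.2.0 and SEACR on mm10. The authors ran SEACR on every library with the IgG sample of its condition as control. The names of the histone lists state the relaxed mode of SEACR, whereas the methods of the study state the stringent mode for these marks. The deposited signal columns hold the summed and the maximum coverage of a peak, on a scale of its own in each library, and read depth is unknown. Only the rank of a peak in its own list was used.

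No peak lay outside the autosomes, X and Y, and 18627 were taken from each H3K4me1 library by maximum signal, ties by total signal. Regions, start sites (132629, GENCODE M21), motif strings on both strands (GRCm38 sequence) and gene windows (21938 protein-coding genes) were computed in Python 3.11.15 with numpy 2.4.6, pandas 2.3.3 and SciPy 1.17.1. Code was tested on simulated peaks. Intervals are 95% Clopper-Pearson (for medians, from order statistics) and cover counting error only. Library measures were compared with exact permutation tests, two-sided, adjusted over 3 (Benjamini-Hochberg). The named genes are 9 landmark genes, up to 4 called genes a direction from each list, the 10 largest gaps a direction and the nearest genes of the 10 strongest regions of each specific class, and examples with many regions were named after their values were seen. The members, lists and alternatives were chosen with earlier results of these data known, and equal numbers within each chromosome were added after seeing the data. Some genes and sequences that the rules select are not reported here. 2 libraries whose labels name different populations were left out. Alternatives were all peaks, 9313 peaks, ranking by total signal, an overlap of 50%, bases shared by the libraries (at least 200 bp), clone B9, each medium, 1 title tag, other windows and gaps, and each library left out.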

Additional observations from a re-analysis of the deposited data

Results flagged for a closer look

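Libraries were checked for values far from the others among the 4 naive ones, for 3 library measures and 9 landmark genes (12 checks, of which chance alone flags about 1 in 20). 2iLIF B12 stood apart in median peak width (5010 bp, next highest 2805 bp), in covered bases (118.9 Mb, next 65.8 Mb) and at Nanog (33.5 kb, next 24.5 kb). NACL B9 stood apart at Gata4 (7.71 kb) and Pdgfra (1.52 kb), where the other 3 naive libraries had no peak among those taken, so that any value above 0 in 1 library would stand apart. With all peaks, 2iLIF B9 had 2.32 kb at Gata4, and 2iLIF B12 and NACL B12 had 7.17 and 1.77 kb at Pdgfra, both above NACL B9. Without 2iLIF B12 the nEnd-only count was 6227 and the naive-only count 4118, and without NACL B9 they were 6243 and 4357.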

How the results depend on the processing

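No paired analysis was possible because both nEnd libraries come from clone B9, so nEnd and the naive media share fewer than 2 clone or replicate labels. Keeping the sets of the title tag apart gave no call. The width difference reversed to -103 bp without nEnd 1, and ranged from -103 to 1184 bp with 1 library left out in turn. With 9313 peaks from each library there were 3006 nEnd-only, 1618 naive-only and 1093 shared regions. With bases shared by the libraries there were 10699 nEnd-only and 5859 naive-only intervals. The naive-only count was 5398 with clone B9, 6999 with 2iLIF and 5952 with NACL alone. Among the libraries that share a numeric tag in their titles (1 nEnd and 2 NACL) the counts were 11578, 7072 and 4401, and among the others 11605, 7585 and 4475. The latter set and the tests that kept the sets apart were added after seeing the data. With all peaks, 4617 regions were shared. With 1 library left out, nEnd-only regions numbered 5916 to 10055, naive-only 3725 to 4357 and shared ones 3048 to 3442, genes with more H3K4me1 4146 to 7609 and with less 1904 to 3135 (2418 genes with more with all peaks). The AGATAA difference between nEnd-only and naive-only regions was 19.98 percentage points, and 22.3 with all peaks. The GATA6 difference was 35.2 in the 500 bp window and 37.4 to 55.8 with 1 library left out, and that of H3K27ac was 43.5 with all peaks and 30.6 to 48.9 with 1 left out. Those for H3K4me1 taken within chromosomes were 55.3 and 47.8. Depth limits the meaning of a missing peak, as the weaker peaks of the longer lists show.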

Other observations

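The share of a library's peaks on chromosome 14 went with the clone in each of the 8 matched pairs of B9 and B12 libraries (H3K4me1, H3K27ac and SOX2 in 2iLIF and NACL, GATA6 and H3K27ac in nEnd). It was 3.91 to 4.53% in B9 and 1.82 to 3.07% in B12, and lower in B12 in 8 of 8 pairs. Chromosome 1 was higher in B9 in 5 of 8 pairs and chromosome X in 3 of 8. Chromosome 1 held 7.15 and 7.38% of nEnd H3K27ac peaks and 10.4 to 12.1% of naive ones in their full lists, which differ in length. IgG samples were not analysed here, and copy number was not tested.

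Genes called to have more H3K4me1 in nEnd were spread unevenly over chromosomes, from 16.4% of tested genes on chromosome 3 to 37.7% on chromosome 8 among the autosomes. Among the autosomes, genes with less ranged from 3.74% on chromosome 14 to 18.5% on chromosome 1.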
